A study of Homo sapiens with 4 samples.

Results

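The 9 genes described here carry the making, storage, recapture and breakdown of the catecholamines dopamine and noradrenaline: TH, DDC, DBH, GCH1, SLC18A1, SLC18A2, SLC6A2, MAOA and MAOB. They were chosen by symbol, 1 row each, out of the 64252 gene rows of the count table. The cells are SK-N-BE(2), an established line from human neuroblastoma in which MYCN is amplified, profiled by RNA sequencing in 4 libraries. Of these, 2 came from cells given a control short hairpin RNA (shControl) and 2 from cells given a hairpin that targets CDK5RAP3 (shCDK5RAP3), whose product works with UFL1, the ligase for the ubiquitin-like modifier UFM1. The series text describes the hairpins as transfected. All libraries come from this single line. Hairpin sequences, the number of hairpins, the time of harvest and any selection of transfected cells are not stated in what was used here.

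Catecholamines are made from tyrosine. TH (tyrosine hydroxylase) turns tyrosine into L-DOPA with tetrahydrobiopterin (BH4) as cofactor, whose first synthetic enzyme is GCH1. DDC then forms dopamine, and DBH, inside the vesicle, forms noradrenaline. The vesicular monoamine transporters SLC18A1 (VMAT1) and SLC18A2 (VMAT2) load the amines into vesicles, SLC6A2 (the noradrenaline transporter) takes released amine back up, and the mitochondrial monoamine oxidases MAOA and MAOB degrade it. Neuroblastoma arises from the sympathetic lineage, and tumours commonly make and shed catecholamine metabolites.

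Upstream sequence is shown for the members whose values the results turn on and that the RefSeq promoter table (GRCh38.p14) lists: DBH and MAOA, which fell far, SLC18A2, the weakly expressed vesicle transporter, and MAOB, which had no counts. Of the 9 members 5 had an entry, with 6 windows in all because DDC has 2 start sites. TH, GCH1, SLC18A1 and SLC6A2 had none. The 250 bases before each start site were searched on both strands for the cAMP response element core TGACGT, the homeodomain core TAAT, the SP1 box GGGCGG, the E-boxes CACGTG and CAGNTG, the GATA word AGATAA and the AP-1 word TGANTCA. Capitals below mark the first 3 of these words on either strand. The windows of DBH and MAOA lie within an annotated untranslated exon of a longer transcript in GENCODE 29, so only a stretch of each is printed, and the SLC18A2 window ends where such an exon begins.
DBH (chr9:133636182-133636210, plus strand, 181 to 153 bases before the start site): TGACGTccatgtgtcATTAgtgccaATTA
MAOA (chrX:43656090-43656115, plus strand, 209 to 184 bases before the start site): gtacaagggtCCGCCCcgctctcagt
SLC18A2 (chr10:117240864-117241073, plus strand, 250 to 41 bases before the start site): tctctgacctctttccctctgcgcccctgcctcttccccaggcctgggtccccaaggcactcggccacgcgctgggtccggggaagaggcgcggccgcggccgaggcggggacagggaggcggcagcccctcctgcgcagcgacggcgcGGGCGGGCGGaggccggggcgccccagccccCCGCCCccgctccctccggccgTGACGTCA
MAOB (chrX:43882451-43882700, minus strand, 250 to 1 bases before the start site): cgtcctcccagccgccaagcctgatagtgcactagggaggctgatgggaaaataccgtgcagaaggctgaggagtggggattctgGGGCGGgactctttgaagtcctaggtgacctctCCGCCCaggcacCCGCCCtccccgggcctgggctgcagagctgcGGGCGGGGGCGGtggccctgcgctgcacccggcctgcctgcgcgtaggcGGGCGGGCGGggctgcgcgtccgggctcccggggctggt

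DBH and SLC18A2 were the members whose window held TGACGT, a word found in 7.10% of 35116 RefSeq windows of the same length. In DBH it began 181 bases before the start site and stood beside TAAT words at 166 and 156 bases. In SLC18A2 the match was the palindrome TGACGTCA, in which the matches on the 2 strands overlap. TAAT, found in 47.4% of windows, occurred 3 times in DBH, once in MAOA and in both DDC windows. GGGCGG, found in 42.6% of windows, occurred 4 times in MAOA, 3 times in SLC18A2 and 7 times in MAOB, with overlapping copies in the latter pair. CAGNTG, at 42.5% of windows, was present 1 time each in DBH and MAOA. No member window held CACGTG (6.34% of windows), AGATAA (9.17%) or TGANTCA (6.57%). A match describes letters, not binding.

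The libraries were alike in size, at 28653689 to 30138393 counts, and 6.33% to 6.84% of counts fell on mitochondrial genes. Libraries of the same group differed beyond counting noise. The chi-square per degree of freedom was 8.67 for shControl and 6.81 for shCDK5RAP3, against 77.3 to 87.9 across groups. The labels do not state that replicates were separate cultures, and every p-value therefore measures the spread between these libraries, which may be technical. CDK5RAP3 mRNA had 2529 and 2866 counts under shControl and 1669 and 1689 under shCDK5RAP3, a fall to 62.1% of control (log2 fold change -0.69, SE 0.08, edgeR adjusted p = 0.000163). The knockdown was thus partial at the mRNA level. In edgeR's quasi-likelihood test over 18775 genes, with Benjamini-Hochberg adjustment and a threshold of 0.05, 4088 genes (21.8%) were lower and 3704 (19.7%) higher in shCDK5RAP3.

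Every catecholamine gene with enough reads to be tested was lower in the shCDK5RAP3 libraries. All 8 tested members passed the test downward, none passed upward, and 7 of the 8 fell at least 2-fold, against 7.29% of all tested genes that were called lower by that much. The 7 include SLC18A2 at the border, and over the alternative settings the count ran from 5, without shControl replicate 2, to 7. It was 6 with RLE or upper-quartile factors, with either other filter, and without either shCDK5RAP3 library. For all 8 the groups did not overlap, with each shCDK5RAP3 library under each shControl library, which was so for 36.4% of tested genes. The median log2 fold change of the tested members was -1.29 beside -0.0034 over all tested genes. SLC18A1 entered the test only through its shControl libraries, while the other 7 passed the low-count filter in both groups. In bulk RNA, fewer cells expressing a gene and less RNA per cell cannot be told apart. CPM denotes counts scaled to library size. The plot of CPM by library shows the separation of groups for each member.

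**Figure D1:**
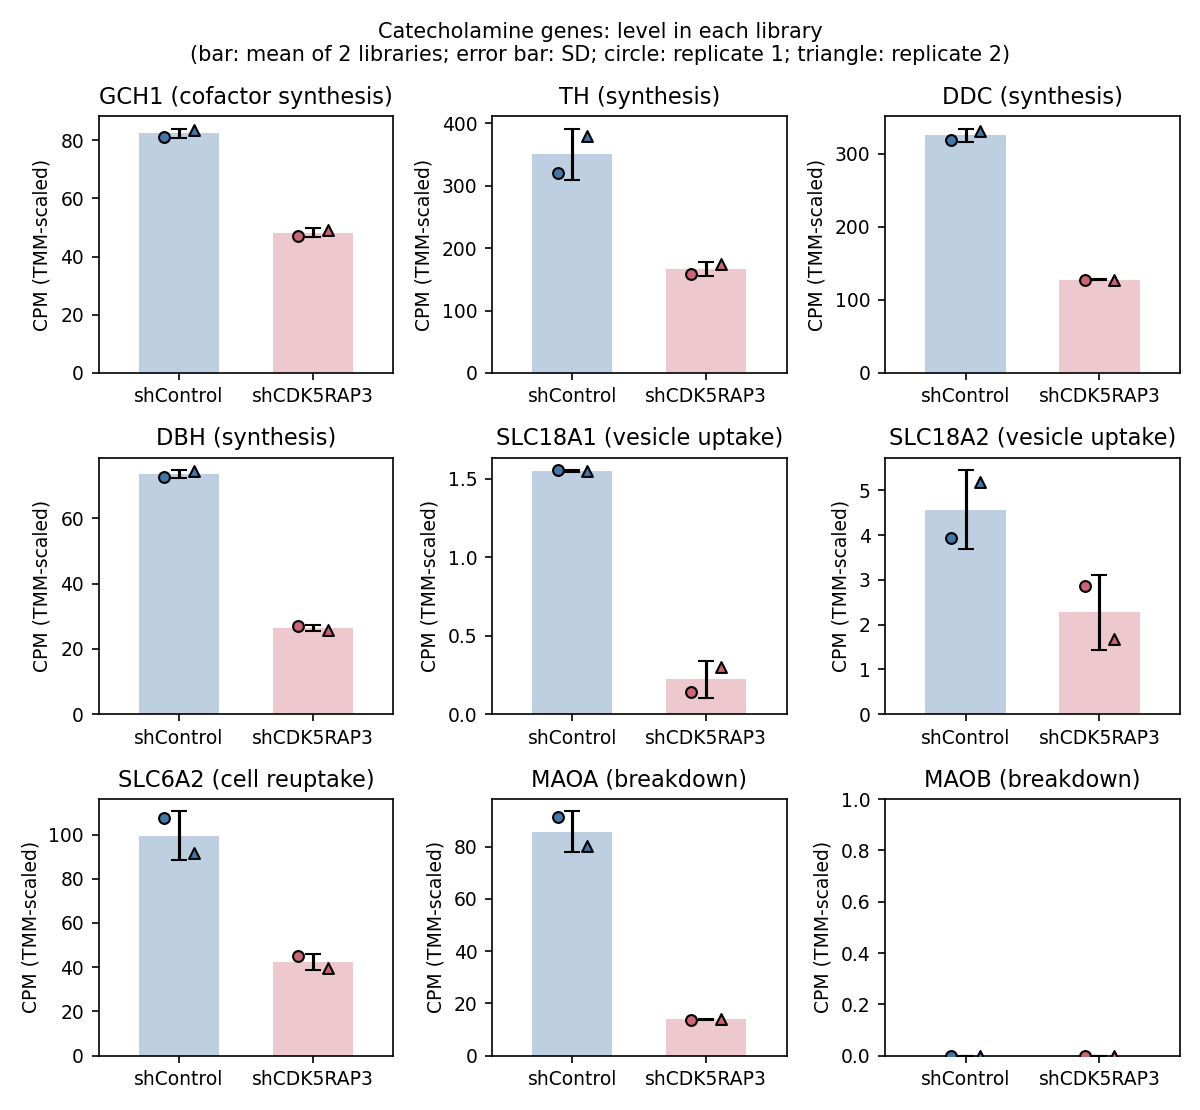
CPM (counts scaled to a common library size with TMM factors) of the 9 catecholamine genes, 1 panel per gene, with bars for the mean of 2 libraries, error bars for the SD, circles for replicate 1 and triangles for replicate 2. In the 8 panels with reads, both shCDK5RAP3 points lie below both shControl points, from 320.8 and 379.6 to 158.8 and 175.2 CPM for TH, while MAOB is at 0 throughout.

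The enzymes of synthesis include the most abundant members, TH and DDC, and all 4 fell to between 35.8% and 58.4% of their control levels. TH (ENSG00000180176, chromosome 11, 2163929 to 2171877, minus strand, GRCh38) catalyses the rate-limiting step. It had 9279 and 11035 counts under shControl and 4535 and 5182 under shCDK5RAP3. The lower control library was still more than 1.5-fold above the higher knockdown library after scaling, at 320.8 against 175.2 CPM. The fall to 47.7% of control corresponds to a log2 fold change of -1.07 (SE 0.09, 95% interval -1.27 to -0.87, edgeR adjusted p = 3.19e-05).

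DDC (ENSG00000132437, chromosome 7, 50458436 to 50565457, minus strand), the aromatic L-amino acid decarboxylase, also acts in serotonin synthesis. Its counts were 9225 and 9654 under shControl and 3650 and 3765 under shCDK5RAP3. Replicates were close within each group, at 325.5 ± 9.33 and 127.6 ± 0.41 CPM (SD, n = 2 each), and the gap between groups was far wider than either spread. DDC fell to 39.2% of control (log2 fold change -1.35, SE 0.06, edgeR adjusted p = 1.61e-06).

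DBH (ENSG00000123454, chromosome 9, 133635348 to 133659344, plus strand), which completes noradrenaline inside the vesicle, fell furthest among the enzymes of synthesis. It had 2105 and 2165 counts under shControl and 771 and 759 under shCDK5RAP3. Scaled levels were 73.6 ± 1.21 against 26.3 ± 0.95 CPM (SD, n = 2 each), so the groups were well apart. The level left was 35.8% of control (log2 fold change -1.48, SE 0.08, 95% interval -1.66 to -1.31, edgeR adjusted p = 2.86e-06).

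GCH1 (ENSG00000131979, chromosome 14, 54842008 to 54902852, minus strand), GTP cyclohydrolase, makes the precursor of BH4. Its counts were 2348 and 2428 under shControl and 1342 and 1456 under shCDK5RAP3. It was the member that fell least, to 58.4% of control (log2 fold change -0.78, SE 0.07, edgeR adjusted p = 4.56e-05), and it stayed under a 2-fold change in every alternative setting. SLC18A2 did so in 5 of them and TH in 2, without shControl replicate 2 (-0.94) and without shCDK5RAP3 replicate 1 (-0.99). The groups of GCH1 were separate, at 82.4 ± 1.67 against 48.1 ± 1.56 CPM (SD, n = 2 each).

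The enzymes of the chain did not fall in equal measure. Per kilobase of exon, the DBH level was 0.195 and 0.168 times that of TH in the shControl libraries and 0.146 and 0.126 times in the shCDK5RAP3 libraries. DDC relative to TH went from 1.03 and 0.905 to 0.832 and 0.751, whereas GCH1 relative to TH went the other way, from 0.278 and 0.242 to 0.325 and 0.309. None of these 3 ratios overlapped between groups. They are given as descriptions, because an exact permutation test of 2 libraries against 2 cannot give a two-sided p below 0.333.

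The vesicle transporters were scarce and were also lower. SLC18A1 (ENSG00000036565, chromosome 8, 20144855 to 20183206, minus strand), the transporter typical of chromaffin cells, had 45 counts in each shControl library and 4 and 9 under shCDK5RAP3. The fall was to 14.6% of control, or 6.84-fold (log2 fold change -2.77, SE 0.47, 95% interval -3.84 to -1.70, edgeR adjusted p = 0.00155). The interval is wide because the knockdown libraries hold so few reads. Without shCDK5RAP3 replicate 2 the log2 fold change was -3.43 and without shCDK5RAP3 replicate 1 it was -2.33, with the call kept in both (adjusted p = 0.0199 and 0.0194, and up to 0.0296 over all 14 alternatives).

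SLC18A2 (ENSG00000165646, chromosome 10, 117241073 to 117279430, plus strand), the transporter typical of neurons, had 114 and 151 counts under shControl and 82 and 50 under shCDK5RAP3. Its replicates spread more than those of any other tested member relative to the gap between groups, at 4.57 ± 0.89 against 2.28 ± 0.84 CPM (SD, n = 2 each). It fell to 49.9% of control (log2 fold change -1.0, SE 0.29, 95% interval -1.66 to -0.35, edgeR adjusted p = 0.0216). The call was lost without shControl replicate 2 (log2 fold change -0.79, adjusted p = 0.0715), without shCDK5RAP3 replicate 2 (-0.67, 0.168) and without a low-count filter (-1.01, 0.155). Over all 14 alternatives the adjusted p ran from 0.00424 to 0.168.

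A second limit concerns where SLC18A2 reads come from. Its exons share 2157 bases with PDZD8 on the opposite strand, and 51.1% of the 75-base words in its transcripts also occur in other genes' transcripts. PDZD8 itself had 2352 and 2295 counts under shControl and 2007 and 2039 under shCDK5RAP3. Whether reads were counted by strand is not stated in what was used here, so reads of the pair may be mixed. SLC18A1 shares no such word with another gene. Per kilobase, SLC18A2 stood 2.39 and 3.17 times above SLC18A1 in the shControl libraries and 19.3 and 5.24 times above it under shCDK5RAP3, where the denominator is the 4 and 9 counts given above.

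Recapture was represented by SLC6A2 (ENSG00000103546, chromosome 16, 55655604 to 55706192, plus strand), which is also the route by which the imaging tracer MIBG enters neuroblastoma cells. It had 3103 and 2666 counts under shControl and 1281 and 1176 under shCDK5RAP3. The control libraries differed from each other by more than the knockdown libraries did, but all of the control values were more than 2-fold above the knockdown values on the CPM scale. SLC6A2 fell to 42.5% of control (log2 fold change -1.23, SE 0.10, 95% interval -1.45 to -1.02, edgeR adjusted p = 2.23e-05). It shares 977 exon bases with the same-strand transcript AC136621.1, which had 798 and 845 counts under shControl and 309 and 418 under shCDK5RAP3.

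MAOA had the largest fall of the well-counted members. The gene (ENSG00000189221, chromosome X, 43654907 to 43746824, plus strand) encodes the oxidase that prefers serotonin and noradrenaline. Counts were 2639 and 2334 under shControl and 394 and 414 under shCDK5RAP3. Scaled levels went from 85.8 ± 7.74 to 13.9 ± 0.14 CPM (SD, n = 2 each), so the knockdown libraries agreed closely at a level far under either control. The level left was 16.2% of control, a 6.17-fold fall (log2 fold change -2.63, SE 0.09, 95% interval -2.84 to -2.41, edgeR adjusted p = 4.73e-07). Only 0.628% of the tested genes had a lower log2 fold change than MAOA.

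MAOB (ENSG00000069535, chromosome X, 43766611 to 43882447, minus strand) lies next to MAOA, and the genes point towards each other. It had 0 counts in all 4 libraries and was not tested. A count of 0 allows up to 3 counts, or 0.101 to 0.105 CPM depending on the library, for counting error only. Per kilobase, MAOA was at least 460-fold and 407-fold above this limit for MAOB in the shControl libraries. In the shCDK5RAP3 libraries it was at least 68.7-fold and 72.2-fold above it. Any MAOB mRNA was thus below detection in both groups, and no change of it could be measured.

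**Figure D2:**
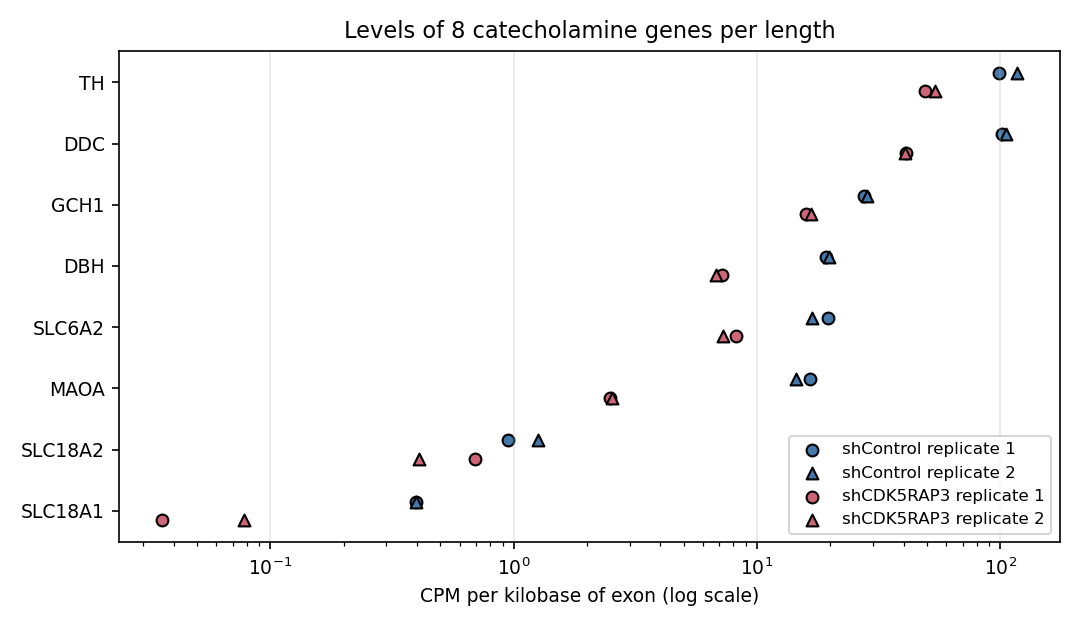
CPM per kilobase of exon for the 8 genes with reads on a logarithmic axis, with 1 point per library (circles replicate 1, triangles replicate 2). TH and DDC sit highest and SLC18A2 and SLC18A1 lowest in both groups, and MAOB, at 0, is not drawn.

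Levels of different genes were set side by side per kilobase of exon. In the shControl libraries TH stood at 108.0 ± 12.8 and DDC at 103.8 ± 2.98 CPM per kilobase (SD, n = 2 each), and they changed places between the libraries. GCH1 followed at 27.9 ± 0.56. DBH (19.5 ± 0.32), SLC6A2 (18.2 ± 2.01) and MAOA (15.5 ± 1.40) came next, with DBH and SLC6A2 in either order. SLC18A2 at 1.10 ± 0.21 and SLC18A1 at 0.397 ± 0.0014 were far below. With this length, TH with DDC, and DBH with SLC6A2, were neighbours that did not differ beyond their spread.

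Under shCDK5RAP3 the order was TH (51.5 ± 3.56), DDC (40.7 ± 0.13), GCH1 (16.3 ± 0.53), SLC6A2 (7.75 ± 0.66), DBH (6.97 ± 0.25), MAOA (2.51 ± 0.025), SLC18A2 (0.550 ± 0.20) and SLC18A1 (0.0568 ± 0.030) in CPM per kilobase (SD, n = 2 each). It was the same in both libraries. MAOA moved away from DBH and SLC6A2, which it had nearly matched in the control libraries. With the length of the longest transcript in place of all exons, the shControl levels rose to 183.4 for TH, 159.5 for DDC and 28.0 for SLC6A2. The closeness of TH to DDC and the place of SLC6A2 beside GCH1 and DBH thus depend on the length used.

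The BH4 genes around GCH1 fell in part. Of 6 listed, 5 were tested, 3 fell and none rose, with a list median of -0.46. Over all tested genes, the background for this and each list below, 21.8% were called lower and 19.7% higher. QDPR (dihydropteridine reductase), which regenerates BH4, went from 4443 and 4683 counts to 2033 and 2271 (log2 fold change -1.09, SE 0.07, edgeR adjusted p = 7.68e-06). PCBD1, the dehydratase of the same recycling arm, went from 880 and 912 to 502 and 545 counts (-0.78), and its relative PCBD2 from 484 and 489 to 389 and 318 (-0.46). Both knockdown libraries lay below both controls for 4 of the 5 tested genes of the list, beside 36.4% of all tested genes. The enzymes that follow GCH1 in making BH4 were not called: PTS had a log2 fold change of -0.27 and SPR of 0.37, with intervals of -0.52 to -0.01 and -0.02 to 0.75. The GCH1 regulator GCHFR had 6 or 7 counts per library and was not tested. PCBD2 lost its call without shCDK5RAP3 replicate 2 (-0.30) and without the filter, with adjusted p from 0.00572 to 0.195 over 14 alternatives. PTS gained a call with the replicate block (-0.27, adjusted p = 0.0223) and without shControl replicate 1 (-0.37, 0.0282), and its adjusted p went up to 0.432.

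Other amine synthesis was thin in these cells. Of 6 listed genes 3 were tested, of which CYB561 and DNAJC12 fell and TPH1 rose. CYB561, the vesicle cytochrome that supplies electrons for DBH, went from 1816 and 1908 to 1117 and 1121 counts (log2 fold change -0.74, SE 0.08, edgeR adjusted p = 9.48e-05). DNAJC12, the chaperone partner of the aromatic amino acid hydroxylases, went from 1384 and 1411 to 1084 and 1121 (-0.35). TPH1, a tryptophan hydroxylase of serotonin synthesis, had 6 and 4 counts under shControl and 19 and 29 under shCDK5RAP3 (2.23, SE 0.56, adjusted p = 0.0116). It entered the test only through its shCDK5RAP3 libraries, where it is high. TPH1 lost its call in 4 of 13 alternatives, among them without shControl replicate 2 (1.96) and without shCDK5RAP3 replicate 2 (1.92), with adjusted p from 0.00856 to 0.121. DNAJC12 lost its call without either shCDK5RAP3 library (adjusted p from 0.000818 to 0.0724 over 14 alternatives). PNMT, which turns noradrenaline into adrenaline, had 7 and 10 counts against 2 and 2 and was not tested, and TPH2 and HDC had 0.

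Breakdown beyond MAOA changed little by comparison. Among 13 listed genes 10 entered the test, of which 4 fell, 2 rose and 4 stayed short of the threshold. None of those called changed 2-fold. The falls were AKR1B1 (log2 fold change -0.59) and the aldehyde dehydrogenases ALDH2 (-0.47), ALDH9A1 (-0.40) and ALDH1B1 (-0.36), which clear the aldehydes that monoamine oxidase forms. AKR1B1 went from 5928 and 6630 to 3925 and 4423 counts, and ALDH2 went from 2218 and 2324 to 1630 and 1658 counts. Both knockdown libraries lay below both controls for 5 of the 10 tested genes of this list, beside 36.4% of all tested genes.

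The rises in the breakdown list were small. AKR1A1, an aldehyde reductase, went from 2128 and 2268 to 2444 and 2868 counts (log2 fold change 0.27) and ADH5 from 4449 and 4430 to 5230 and 5264 (0.24). ALDH7A1 (-0.18), ALDH3A2 (-0.03) and the near-identical sulfotransferase genes SULT1A3 (0.72) and SULT1A4 (-0.65), whose reads cannot be assigned with confidence, were not called. Of the 6 calls in this list 4 were lost when 1 library was left out. Without shCDK5RAP3 replicate 2 the list had 2 genes called lower and none higher, and without shCDK5RAP3 replicate 1 it had 3 and 1. ALDH1B1 and ADH5 lost their calls in both cases, ALDH9A1 and AKR1A1 without replicate 2, and AKR1A1 also without shControl replicate 1. ALDH7A1, at an adjusted p of 0.0509, gained a call in 5 of 14 alternatives (0.00835 to 0.289), namely library size only, the robust fit, limma-trend, the replicate block and without shControl replicate 1.

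**Figure D3:**
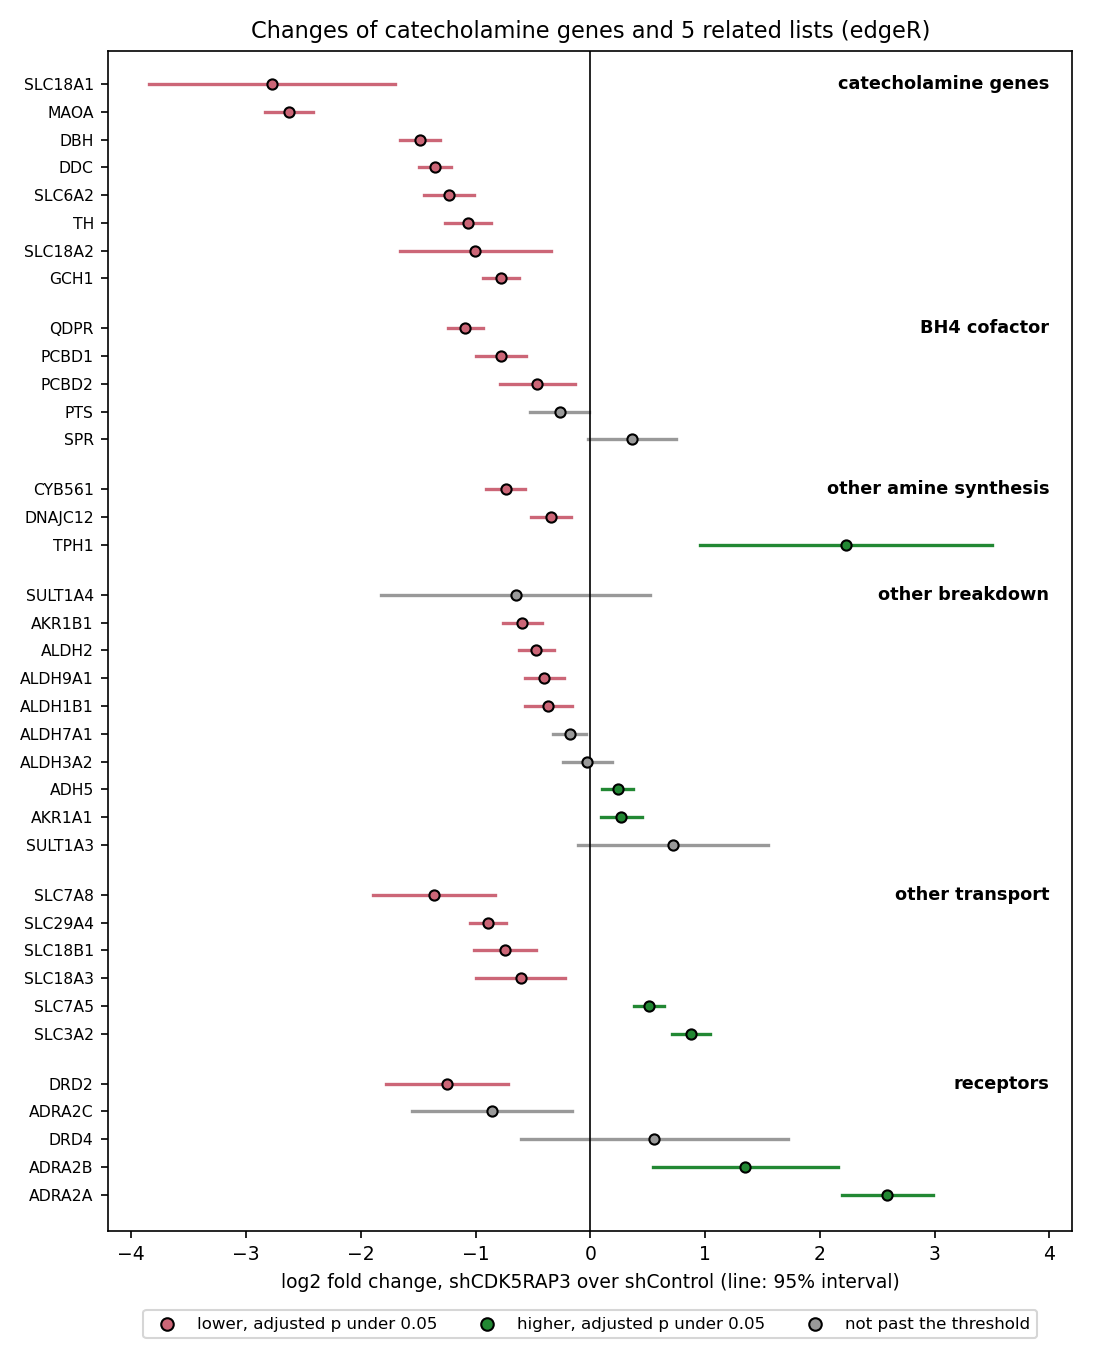
Log2 fold change (shCDK5RAP3 over shControl) of the 8 tested catecholamine genes and the 29 tested genes of 5 related lists, with 95% intervals as lines and colour for the edgeR call. The catecholamine genes all lie left of 0, from -2.77 for SLC18A1 to -0.78 for GCH1, while the related lists hold genes on both sides, from -1.37 for SLC7A8 to 2.59 for ADRA2A.

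Other carriers of amines and their precursors moved both ways. All 6 tested genes of 10 listed were called, 4 lower and 2 higher. SLC29A4, a low-affinity plasma membrane monoamine transporter, went from 3149 and 3416 to 1775 and 1777 counts (log2 fold change -0.89, SE 0.07, edgeR adjusted p = 2.26e-05). SLC18B1, a vesicular polyamine transporter related to the VMATs, fell by 0.75 on the log2 scale and SLC18A3, the vesicular acetylcholine transporter, by 0.61. Per kilobase, SLC6A2 was 1.05 and 0.830 times SLC29A4 in the shControl libraries and 0.768 and 0.704 times in the shCDK5RAP3 libraries, so the recapture transporter fell somewhat more than SLC29A4.

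The amino acid carriers that bring in tyrosine and L-DOPA were split. SLC7A5 (LAT1) rose from 6936 and 6719 to 9497 and 10022 counts (log2 fold change 0.51), and its heavy chain SLC3A2 from 3943 and 4189 to 6927 and 8047 (0.88, SE 0.07, edgeR adjusted p = 3.30e-05). SLC7A8 (LAT2), which pairs with the same heavy chain, fell from 115 and 122 to 48 and 44 counts (-1.37, SE 0.23, adjusted p = 0.00162). Over the 6 tested genes of the transport list, both knockdown libraries lay below both controls for 4, beside 36.4% of all tested genes. The dopamine transporter SLC6A3 and the organic cation transporters SLC22A2 and SLC22A3 had 0 counts, and SLC6A4 had at most 10. SLC18A3 lost its call in 5 of 14 alternatives (adjusted p 0.00987 to 0.120), including without shControl replicate 1 or either shCDK5RAP3 library.

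Of the receptors for these amines, 5 of 15 listed had enough reads for the test, which 2 passed upward and 1 downward. ADRA2A, the alpha-2A adrenoceptor that serves as an inhibitory autoreceptor on noradrenergic cells, had 87 and 69 counts under shControl and 451 and 491 under shCDK5RAP3. Both knockdown libraries were more than 4-fold above either control, and the rise was 6.01-fold (log2 fold change 2.59, SE 0.18, 95% interval 2.19 to 2.99, edgeR adjusted p = 1.12e-05). It ran opposite to every tested catecholamine gene. ADRA2B rose from 25 and 47 to 72 and 113 counts (1.35, adjusted p = 0.0142), and DRD2, the dopamine D2 receptor, fell from 272 and 254 to 135 and 86 (-1.25, adjusted p = 0.00261). ADRA2C was at -0.86 (adjusted p = 0.0521) and DRD4 at 0.56, neither called. ADRA2B lost its call without shCDK5RAP3 replicate 2 (1.02) and without the filter, with adjusted p from 0.00069 to 0.173, and DRD2 without the filter alone (0.0644, the highest of its 14). ADRA2C gained one in 7 of 14 alternatives (0.000203 to 0.316), including without shControl replicate 1 and without shCDK5RAP3 replicate 2. ADRA1B, ADRB1, ADRB3, DRD1, DRD3, DRD5 and TAAR1 had 0 counts.

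Together the 5 related lists held 50 genes, 29 of them tested: 7 rose, 14 fell, 8 did not pass the test and 12 of the 50 were at 0 counts in every library. Over all tested genes 19.7% were called higher and 21.8% lower. The median log2 fold change of the 29 was -0.36, and 3 of them fell at least 2-fold. The shCDK5RAP3 libraries both lay below the shControl libraries for 17 of the 29, beside 36.4% of all tested genes. Without shCDK5RAP3 replicate 2 the count was 3 higher and 10 lower, and without a low-count filter 4 higher and 11 lower.

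**Figure D4:**
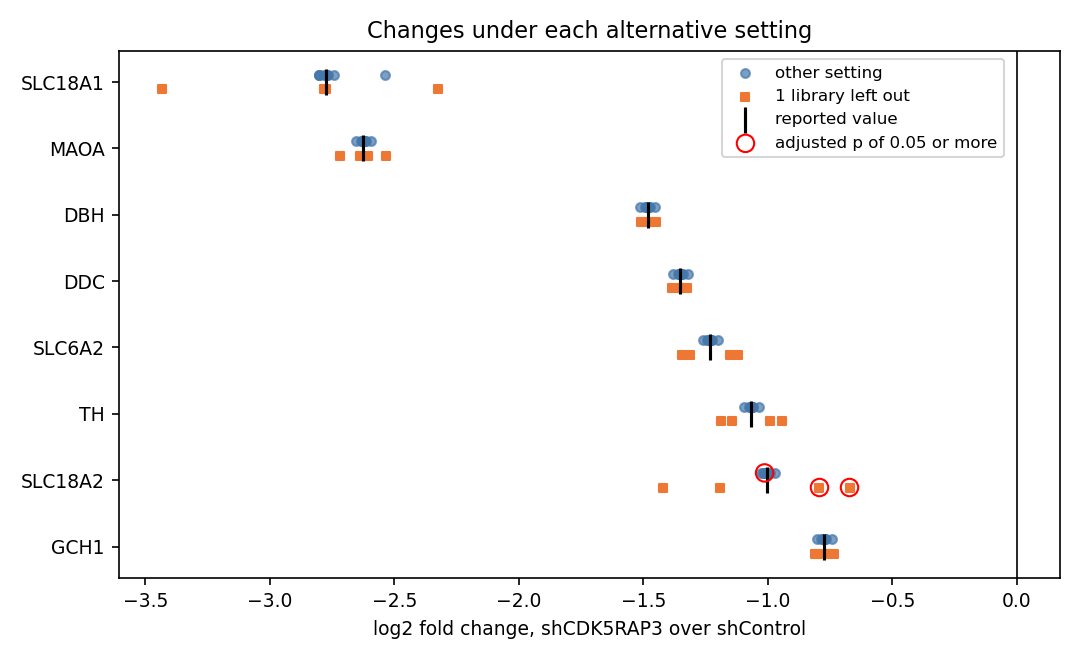
Log2 fold change of each tested catecholamine gene under every alternative setting (circles), with 1 library left out (squares) and as reported (vertical bar). Open red rings mark values with an adjusted p of 0.05 or more, and they occur for SLC18A2 alone, at -1.01, -0.79 and -0.67.

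Across 14 alternative settings the members other than the vesicle transporters moved little. The log2 fold change of MAOA ran from -2.72 to -2.53, that of DBH from -1.51 to -1.45, that of DDC from -1.38 to -1.32 and that of GCH1 from -0.81 to -0.73. TH (-1.19 to -0.94) and SLC6A2 (-1.35 to -1.12) moved more, at the settings that leave out 1 library. The plot of alternative settings shows the wider scatter of SLC18A1 and SLC18A2.

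Genes whose 4 values followed TH most closely were sought among 3820 tested genes with a symbol and a level within 4-fold of TH. By Euclidean distance of log2 CPM, centred on the shControl mean, the nearest were BEX1 (distance 0.085), UBE2E3 (0.099) and MYCNOS (0.117), the antisense transcript of MYCN. BEX1, for example, had 2737 and 3412 counts under shControl and 1333 and 1501 under shCDK5RAP3. In all 33 genes lay within a distance of 0.25, and 4 libraries cannot separate them further.

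A list of 10 genes linked to noradrenergic neuroblastoma identity was looked up, all of them detected and tested. Of these 7 were lower and 1 was higher under shCDK5RAP3, with a median of -0.48 beside -1.29 for the catecholamine genes. STMN2 (-0.85), TFAP2B (-0.77) and MYCN (-0.75) were among the lower ones, while GATA2 (0.41), named after its values were seen, was higher. MYCN had 135190 and 143038 counts under shControl and 80317 and 85225 under shCDK5RAP3. Summed over the 10 genes, levels were 8547 and 8920 CPM in the shControl libraries and 5590 and 5753 CPM in the shCDK5RAP3 libraries. Of 9 cholinergic genes 8 were tested, of which 5 fell, none rose and 3 were not called. Over all tested genes 21.8% were called lower, and the median of the cholinergic list was -0.86. In this list 3 genes fell at least 2-fold, among them CHRNA3 (-1.26) and CHRNB4 (-1.09), while SLC5A7 (-1.17) was not called. CHAT, the defining enzyme of acetylcholine synthesis, had at most 4 counts.

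Markers of most other cell types were low or at 0. SOX10 and FOXD3 (Schwann), CD3E (leukocyte), CDH1 (epithelial) and CYP11B1 and HSD3B2 (adrenal cortex) had 0 counts in every library. Summed levels per list were 1.58 to 3.94 CPM for Schwann, 1.19 to 2.18 for endothelial, 1.86 to 3.92 for leukocyte, 4.13 to 8.12 for epithelial and 0.666 to 2.75 for adrenal cortex genes. The fibroblast and mesenchymal list was the exception: 9 of 10 genes were tested, 6 fell and 1 rose, and the sum was 987 and 947 CPM under shControl against 588 and 562 under shCDK5RAP3. The largest changes were PDGFRB (-2.32), DCN (-1.73) and LUM (-1.21), which fell, and COL1A2 (-1.61), which was not called. Named after their values were seen, FN1 rose (0.43), COL1A1 fell little (-0.28) and COL3A1 was not called (-0.22). The part of these cells or of this state in the results above was not tested.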

How the data were processed

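RNA-seq gene counts of 4 SK-N-BE(2) libraries (2 shControl, 2 shCDK5RAP3) were analysed. The authors deposited whole-number counts per Ensembl gene, not scaled between libraries. Per the labels' protocols, total RNA was made into TruSeq libraries, and HISAT2 2.2.0 and StringTie, with the build hg38, are named in GEO per the submitters' processing notes. Strand setting and annotation release are not given in the sources read. Groups came from sample titles. Symbols came from GENCODE 29, with a second reference of gene names for rows it lacked and for listed symbols. They were assigned to 56591 of 64252 rows, and rows without one (1.82% to 1.90% of counts) stayed in the totals.

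In R 4.3.3, edgeR 4.0.16 was run with TMM factors, filterByExpr (18775 genes kept) and the quasi-likelihood test, group only. Benjamini-Hochberg adjustment covered the whole table at a threshold of 0.05. The SE is the size of the log2 change over the root of F. CPM uses TMM-scaled library sizes, and levels between genes are per kilobase of merged exons. Alternatives were RLE, upper-quartile or no scaling factors, the low-count filter dropped or set to a CPM of 1 in 2 libraries, limma-trend (limma 3.58.1, prior count 2), DESeq2 1.42.0, edgeR's robust option, a replicate block, rows summed by symbol, the longest transcript's length, and each library left out in turn. The edgeR script was tested on simulated data.

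The members and all gene lists were chosen with earlier results of these data known. Named genes are all members, CDK5RAP3, genes of 5 related lists, at most 4 of each marker list plus those at 0, and the 3 nearest to TH. GATA2, FN1, COL1A1 and COL3A1 were named in addition, after their values were seen. SLC18A3 is in both the transport and the cholinergic list. Some genes of these lists were left out of the list counts and are not reported here.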

Additional observations from a re-analysis of the deposited data

How the results depend on the processing

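The catecholamine genes kept their direction and call in 109 of 112 alternative values, and the 3 that lost the call all belong to SLC18A2. Over the related lists 363 of 403 values kept direction and call, 24 lost a call, 14 gained one and 2 changed sign, in 14 of 29 genes. The sign changes were in ALDH3A2, which had no call, at 0.0057 with upper-quartile factors and -0.095 to 0.046 with 1 library left out. Without a filter on low counts 1966 genes were higher and 2522 lower, with 4 related genes higher and 7 catecholamine genes lower. DESeq2 called 2995 higher and 3359 lower. Leaving out 1 library gave 1556 to 3516 genes higher, 2196 to 3813 lower, 7 to 8 catecholamine genes lower, and 3 to 6 related genes higher and 10 to 16 lower. In these fits the lone library is assumed to vary like the other group. With the replicate number as a block, 4430 genes were higher and 4718 lower, with 8 catecholamine genes lower and 7 related genes higher and 17 lower. The labels do not state whether libraries with the same replicate number are paired. The correlation of replicate deviations between groups was 0.0534. A single value over all genes cannot exclude that some genes share a replicate effect. At 4 to 151 counts, the values of SLC18A1 and SLC18A2 are limited by depth, and MAOB could not be measured.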
